A study of Mus musculus with 20 samples.

Results

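Gene expression in hair follicle stem cells was compared between 24-month and 5-month male mice, both with their follicles in telogen, the resting phase of the hair cycle. The comparison used 6 of the 20 arrays of the series: all 3 arrays labelled aged telogen (24 months old) and all 3 labelled ND 3 months telogen, from mice kept on normal diet for that time and 5 months old when sampled. The diet of the 24-month mice and the strain were not given in the sources used here, nor was the way in which the stem cells were isolated, and no genotype or transgene was named for either group. Each sample was total RNA from hair follicle stem cells, labelled with Cy3 and hybridised to 1 Agilent mouse array. The other 14 arrays came from 2-month mice on normal or high-fat diet for 4 days, from 5-month mice on high-fat diet and from follicles in anagen, the growth phase, with 1 anagen array per condition. The labels do not say whether the 3 arrays of a group came from separate mice, so the p-values below measure only the spread between these samples.

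Hair follicle stem cells sit in the bulge, the part of the follicle that stays in place through the hair cycle, where they rest in telogen and are activated to rebuild the follicle in anagen. They are held to the basement membrane by hemidesmosomes, in which collagen XVII and the α6β4 integrin link the keratin skeleton to laminin, and to each other by desmosomes. Transcription factors such as Lhx2, Sox9, Tcf7l1 and Nfatc1 keep them in the stem cell state, and loss of collagen XVII from these cells is known to accompany hair follicle ageing in mice.

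The label of the cells was set beside 10 stem cell markers. All 10 (Cd34, Lgr5, Krt15, Itga6, Krt5, Krt14, Sox9, Lhx2, Nfatc1 and Tcf7l1) were well above background, by the scanner's own flag, on all 6 arrays. So were 15641 of the 17311 genes tested, among them Csf1r of macrophages, Cd3e of T cells and Krt1 of differentiated epidermis. The flag alone thus does not set stem cells apart from these cells. Krt15, a bulge keratin, had normalized signals of 70.3, 84.3 and 156 on the 24-month arrays and 109, 109 and 115 on the 5-month arrays. A normalized signal is the intensity of a probe divided by a value close to the 75th percentile of its array, so a signal of 1 is that of a probe at about that percentile.

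The groups also differed in where they were processed. The 24-month telogen arrays lay on slide 3, which was scanned on another day than slide 1 with the 5-month arrays, and no slide held telogen arrays of both ages, so slide and age cannot be told apart in telogen. Between 70.3% and 74.6% of the spots were well above background on the 24-month arrays and between 73.7% and 77.6% on the 5-month arrays. The 24-month arrays spread more widely: the median standard deviation (SD) of a gene over 3 arrays was 0.62 on the log2 scale at 24 months and 0.41 at 5 months, and the correlation between arrays was 0.868 to 0.887 within the former and 0.922 to 0.924 within the latter. For these reasons most weight is given below to 7895 genes that were bright on both sides, that is, well above background on all 6 arrays and with a mean in each group at or above the median of all genes tested.

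Of 17311 genes tested, 12 differed between the ages at an adjusted p below 0.05 (limma's moderated test with Benjamini-Hochberg adjustment over all genes), or 0.0693% of them. The 24-month arrays were higher for 11 of these (0.0635%) and lower for 1 (0.00578%). Only 4 of the 12 were well above background on all 6 arrays (0.0256% of 15641 such genes), namely Mei1, Gm19531 and Ddx28, which were higher (0.0192%), and Armcx1, which was lower (0.00639%), and none was bright on both sides. The remaining 8 were well above background on all 3 of the 24-month arrays and on 0 of the 5-month arrays, so that their fold is a lower bound. For this bound the 24-month mean is divided by the mean over the 5-month arrays of the dimmest signal that the scanner still flagged as above background, or of the probe's own signal where higher. The number of arrays limited the precision: a log2 difference had a 95% interval of ± 1.12 at the median gene. Leaving out the second 24-month array gave 25 calls, the third 6, the first 5-month array 6 and the third 5, and of the 12 genes Vmn1r12, Mei1, Prl7d1 and Tbx4 passed without each of the 6 arrays in turn (highest adjusted p 0.0255). The calls of the other 8 were lost without at least 3 of the arrays, Lce1i without each of the 6 and Armcx1, Gm19531 and Akr1c12 without 5 of them (highest adjusted p 0.129 to 0.172 for these). Some other settings kept fewer calls. There were 2 with normexp background correction and 0 in a fit of all 20 arrays with phase as a term. A fit of the 6 arrays alone gave 3 calls, and of the 12 genes it kept Vmn1r12 alone. A fit of all 20 arrays with slide as a block, which rests on the single anagen arrays, called none of the 12 and turned the sign of 7 of them, among them Vmn1r12 (−5.01), Mei1 (−4.27) and Prl7d1 (−2.41).

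Mei1, a gene needed for recombination in meiosis, had signals of 0.328, 0.380 and 0.374 at 24 months and 0.043, 0.048 and 0.043 at 5 months. The groups lay far apart with little spread inside either, and Mei1 rose by 3.01 ± 0.31 on the log2 scale (SE, n = 3 arrays a group), or 8.07-fold (limma adjusted p = 0.00282). Its second tested probe differed by 0.64. Ddx28, an RNA helicase of mitochondria, had signals of 1.21, 0.669 and 1.19 against 0.144, 0.254 and 0.177. It rose by 2.41 ± 0.36 (SE, limma adjusted p = 0.0316), but the 3 arrays of 2-month mice on normal diet, at 1.05 to 1.4, were as high as the 24-month ones. The predicted gene Gm19531 had signals of 0.578, 0.483 and 0.609 against 0.174, 0.167 and 0.191 and rose by 1.65 ± 0.24 (SE, limma adjusted p = 0.0283).

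Armcx1, a protein of the mitochondrial surface, was the only gene that passed the test with a lower level at 24 months. Its signals were 0.494, 0.114 and 0.230 on the 24-month arrays and 2.43, 3.46 and 1.88 on the 5-month arrays. It fell by 3.42 on the log2 scale (SE 0.52, limma adjusted p = 0.0345), and all 3 of the 24-month arrays lay below each of the 12 other telogen arrays.

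Among the 8 genes measured at 24 months alone, Vmn1r12, a vomeronasal receptor of the sensory organ for pheromones, had signals of 0.402, 0.206 and 0.389, against 0.010, 0.006 and 0.005 at 5 months. It rose at least 16.6-fold, with the smallest p of all genes (limma adjusted p = 4.46e-05). Tbx4, a T-box transcription factor of the hindlimb, had signals of 0.123, 0.224 and 0.390 and rose at least 11.5-fold (limma adjusted p = 0.00311). Alpl, tissue-nonspecific alkaline phosphatase, which marks the dermal papilla, had signals of 0.098, 0.195 and 0.216 and rose at least 8.37-fold (limma adjusted p = 0.02). Akr1c12, an aldo-keto reductase with close relatives in the same gene cluster, had signals of 0.062, 0.194 and 0.310 and rose at least 8.09-fold (limma adjusted p = 0.0292). The other 4 were Saa4, a serum amyloid A (at least 11.6-fold), Lce1i, a late cornified envelope protein (at least 8.10-fold), Prl7d1, a prolactin relative of the placenta (at least 7.58-fold), and Hacd4, an enzyme of fatty acid elongation (at least 5.2-fold), with limma adjusted p between 0.00282 and 0.0392. A second probe of Hacd4, which did not enter the test, went the other way, by −2.63. It was well above background on 2 of the 5-month and 0 of the 24-month arrays. The highest signal among the 8 was the 0.432 of Saa4. The 8 entered the test through their 24-month signals alone, and their p-values used the 5-month signals below background as deposited. With 0.1 added to each signal, Vmn1r12, Tbx4 and Alpl still passed. Prl7d1, Saa4, Hacd4, Akr1c12 and Lce1i did not. Over the gene family of Vmn1r12, the share of vomeronasal receptor probes well above background was 28.8% to 31.4% on the 24-month arrays and 29.9% to 33.9% on the 5-month arrays.

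The 12 genes were followed on the other arrays of the series. Of them, 10 lay on all 3 of the 24-month arrays outside the range of all 12 other telogen arrays, the exceptions being Ddx28 and Lce1i. Slide 3 also carried 2 anagen arrays, 1 from 24-month mice and 1 from 2-month mice after 4 days of high-fat diet, and the latter shared its row of the slide with the 24-month telogen arrays. On that array from young mice Vmn1r12 had a signal of 0.189, Prl7d1 of 0.123 and Saa4 of 0.168, all well above background. On the 24-month anagen array the same genes had 0.007, 0.007 and 0.009, none well above background. Mei1 had 0.522 on the young array and 0.043 on the 24-month anagen array, and Lce1i had 1.125 and 0.568. Hence 4 of the genes that rose in 24-month telogen were high in young anagen cells next to those arrays and not in 24-month anagen cells, and the part of slide position in these calls was not tested. Tbx4, Hacd4, Alpl and Akr1c12 were not well above background on the young array, at signals of 0.005, 0.01, 0.005 and 0.02.

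**Figure D1:**
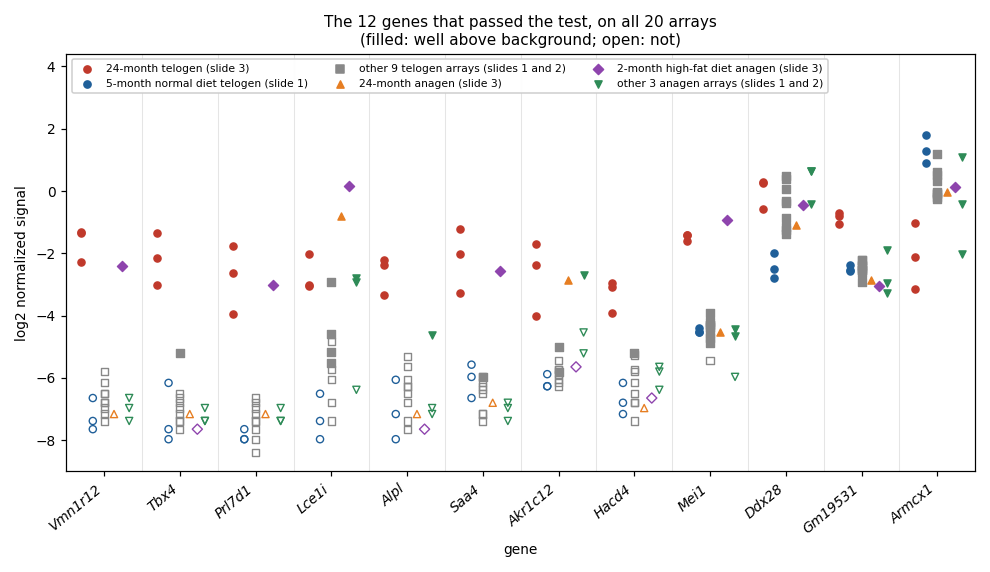
Log2 normalized signal (vertical axis) of the 12 genes with a limma adjusted p below 0.05 (horizontal axis) on all 20 arrays, 1 symbol an array, with colour and shape for the group and slide, and filled symbols where the probe was well above background. The 24-month telogen arrays stand apart from the 5-month arrays for each gene, and for Vmn1r12, Prl7d1, Saa4, Mei1 and Lce1i the 2-month high-fat diet anagen array of the same slide lies within their range, above it or just below it.

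The sign of the difference varied with brightness. When the 17311 genes were split into 5 classes of equal size by their mean signal, the median difference, 24 months minus 5 months, was 0.34 in the dimmest class, 0.39 in the next, 0.07 in the middle one, −0.12 in the one after it and −0.18 in the brightest. Accordingly, of 3207 genes whose groups did not overlap (18.5% of all), 2035 (11.8%) were higher at 24 months and 1172 (6.77%) lower, while of 1138 bright genes without overlap (14.4%), 355 (4.5%) were higher and 783 (9.92%) lower. The lower share of the bright genes without overlap, 68.8%, was 53.6% with quantile normalization, 54.7% with the percentile taken over probes detected on all 20 arrays and 91.9% with median centring, which lowered the median difference of all genes from 0.05 to −0.23. Over all genes the lower share was 36.5% as deposited and 64.4% with median centring. The median difference of the bright genes was −0.14, and differences below are read against it. A difference below 0 was found for 61.7% of the bright genes and 47.3% of all genes tested.

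**Figure D2:**
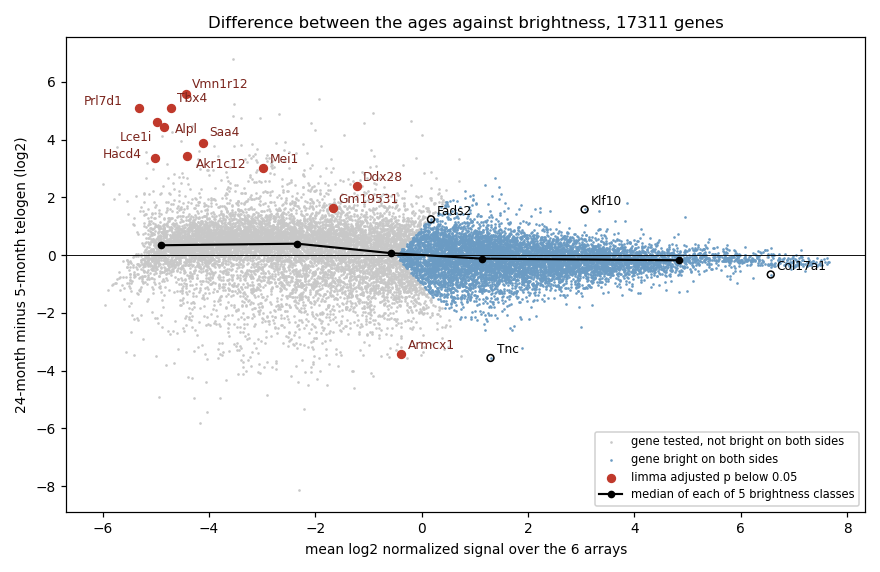
Difference between 24-month and 5-month telogen in log2 units (vertical axis) against the mean log2 normalized signal over the 6 arrays (horizontal axis) for 17311 genes, 1 point a gene, with bright genes in blue, the 12 genes that passed the test in red and the medians of the 5 classes by brightness as a line. The line runs from 0.34 on the left to −0.18 on the right, and the red points lie among the dimmer genes.

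Among the bright genes 0 passed the test, and the smallest limma adjusted p was 0.0897. An unadjusted p below 0.05 was reached by 589 of the 7895, 414 of them lower and 175 higher at 24 months. With weights for array quality, another limma setting, Tnc and Col6a1 passed with adjusted p of 0.0318 and 0.0482. All bright genes named from here on missed the threshold in the fit reported, and their values are given as measured. Of the bright genes, 106 (1.34%) lay outside the range of all 12 other telogen arrays on all 3 of the 24-month arrays, and 84 of these 106 lay below it. Of the genes named here, many of which were taken from lists of matrix and adhesion genes, these 84 held Tnc, Postn, Col6a1, Itgb4, Tln1, Dsp, Dsc3, Plxna2, Atp11a, Cdk11b and Msx2. By list they held 2 of 12 bright hemidesmosome genes, 2 of 11 niche matrix glycoproteins, 2 of 14 desmosome and adherens junction genes and 0 of 16 basement membrane proteins, beside 1.06% of all bright genes. With slide as a block, Plxna2 (2.07), Atp11a, Nfib, Runx1, Lrig1, Itga6, Col4a1 and Sesn1 turned in sign among the bright genes named below.

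Tnc, the matrix glycoprotein tenascin C of the bulge niche, had the lowest p of the bright genes. Its signals were 0.276, 1.27 and 1.04 at 24 months and 6.20, 8.69 and 11.1 at 5 months. The lowest 5-month array was thus several times the highest 24-month array, the mean difference was −3.56 ± 0.63 (SE), or 11.8-fold lower (limma adjusted p = 0.0897). Its second tested probe was lower too, but was well above background on only 2 of the 3 24-month arrays. Plxna2, a semaphorin receptor, had signals of 1.51, 0.986 and 0.620 against 3.23, 5.32 and 3.23, a difference of −1.97 ± 0.35 (SE, limma adjusted p = 0.0897). Col6a1, a chain of collagen VI, had 2.67, 3.83 and 4.72 against 11.1, 11.3 and 13, a difference of −1.69 ± 0.33 (SE, limma adjusted p = 0.126). Igfbp3, a secreted protein that binds insulin-like growth factors, had 2.23, 7.79 and 2.23 against 15.2, 20.7 and 21.9. It differed by −2.49 ± 0.50 (SE, limma adjusted p = 0.126), and without the second 24-month array, which was the high one, its adjusted p was 0.0229. The other 4 bright genes with the smallest p and lower levels were Atp11a, a phospholipid flippase (−1.49 ± 0.28), Rps6kb1, the ribosomal S6 kinase (−1.48 ± 0.32, with 2-month arrays as low, at 1.70 to 3.09 against 1.55 to 2.99 at 24 months), Cdk11b, a kinase of transcription and splicing (−1.44 ± 0.31), and Msx2, a homeobox factor of the hair lineage (−1.22 ± 0.26). All 8 were lower on every 24-month array than on every 5-month array.

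The 250 bases before the start sites of 4 matrix and basement membrane genes that were lower on all 24-month arrays are shown, as the stretch in which general promoter elements usually lie. They are RefSeq sequences of the mouse build GRCm38.p6, 5′ to 3′ on the gene's strand. Capitals mark the letters of the TATA box, written TATAAA, those of the CCAAT box, and those of the GC box, written GGGCGG. All were searched on both strands, and a match on the other strand shows as its reverse complement. The intervals are chr4:64047016-64047265 (minus strand) for Tnc, chr3:54360857-54361106 (plus strand, the second of 2 start sites) for Postn, chr19:47692043-47692292 (minus strand) for Col17a1 and chr9:108953336-108953585 (plus strand) for Col7a1.
Tnc: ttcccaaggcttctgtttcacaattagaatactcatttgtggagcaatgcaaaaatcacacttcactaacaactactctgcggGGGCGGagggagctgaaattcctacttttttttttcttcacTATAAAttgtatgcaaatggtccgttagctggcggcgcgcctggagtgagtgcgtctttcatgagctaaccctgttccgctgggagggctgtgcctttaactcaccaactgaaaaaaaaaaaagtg
Postn: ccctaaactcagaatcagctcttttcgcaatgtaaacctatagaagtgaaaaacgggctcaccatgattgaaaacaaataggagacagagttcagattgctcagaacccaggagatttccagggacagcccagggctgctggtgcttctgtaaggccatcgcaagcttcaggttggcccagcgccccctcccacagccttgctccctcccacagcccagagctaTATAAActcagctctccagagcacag
Col17a1: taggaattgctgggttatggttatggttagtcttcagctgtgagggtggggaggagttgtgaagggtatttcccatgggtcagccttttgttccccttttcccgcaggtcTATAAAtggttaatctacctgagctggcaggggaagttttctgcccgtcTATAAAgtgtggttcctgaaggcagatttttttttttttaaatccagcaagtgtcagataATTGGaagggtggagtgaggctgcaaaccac
Col7a1: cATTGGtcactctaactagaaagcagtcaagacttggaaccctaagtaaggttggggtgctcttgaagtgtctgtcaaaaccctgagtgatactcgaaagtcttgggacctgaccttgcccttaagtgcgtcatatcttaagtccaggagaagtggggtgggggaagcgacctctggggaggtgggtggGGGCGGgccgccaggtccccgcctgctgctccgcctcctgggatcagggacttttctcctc
The TATA letters were found in the stretches of Tnc, Postn and Col17a1, but the first listed start site of Postn held none of the letters searched, and the GC box letters in those of Tnc and Col7a1. Over the 250 bases before the first listed start site of 13691 genes tested, 9.63% held the TATA letters, 35.7% the CCAAT letters and 49.6% the GC box letters. The letters of the AP-1 site, written TGANTCA, and those of the TEAD site, written CATTCCA, were searched too. They occurred in 5.46% and 2.97% of these stretches and in none of the 4 shown. A match is a description of the letters and not a site shown to be used.

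Hemidesmosome and basal adhesion genes lay mostly below 0. All 14 listed were tested, 0 passed in either direction, 10 were below 0, and 12 were bright, with a median of −0.57 against −0.14 for all bright genes and 4 of 12 lower without overlap (9.92% of all bright genes). Col17a1, collagen XVII, had signals of 79.2, 61.4 and 86.8 at 24 months and 115, 118 and 126 at 5 months. Every 24-month array was below every 5-month array, with a difference of −0.67 ± 0.24 (SE, 1.59-fold lower, limma adjusted p = 0.299), and its other probe lay at −0.79. Itgb4, the β4 integrin that pairs with α6 in hemidesmosomes, had 8.97, 7.85 and 10.9 against 11.5, 14.5 and 18.5, a difference of −0.67 ± 0.28 (SE, limma adjusted p = 0.351), and its 24-month arrays lay below all 12 other telogen arrays. Itga6, the α6 integrin, had 6.21, 8.27 and 3.80 against 9.71, 10.3 and 11.3, a difference of −0.85 ± 0.37 (SE, limma adjusted p = 0.374). Tln1, talin 1, differed by −1.07 ± 0.40, but its other probe lay at 0.32.

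Basement membrane proteins stood further below 0 than any other list of adhesion or matrix genes. Of 22 listed, 20 were tested and 19 lay below 0, and all 16 bright members did, with a median of −0.63; 0 passed the test, and 2 of the 16 bright ones were lower without overlap (9.92% of all bright genes). Col7a1, the anchoring fibril collagen, had signals of 12.5, 9.78 and 6.23 at 24 months and 14.5, 22.3 and 23 at 5 months, a difference of −1.10 ± 0.31 (SE, limma adjusted p = 0.237). Col4a1, a chain of collagen IV, had 2.29, 1.31 and 0.908 against 4.66, 2.24 and 3.50, so that the groups overlapped (−1.25 ± 0.61, SE, limma adjusted p = 0.421). Postn, periostin, from the list of niche matrix glycoproteins, had 19.9, 25.6 and 32.2 against 44.9, 51 and 45, a difference of −0.88 ± 0.24 (SE, limma adjusted p = 0.229). Of that list 16 of 18 members were tested and 13 lay below 0 (median −0.37), with 0 passing. Fn1, fibronectin, stood against this: its brighter probe differed by 3.24, whereas its other tested probe was well above background on all 5-month and on 0 of the 24-month arrays and so at least 12.9-fold lower at 24 months, and the array gives no direction for it.

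Genes of desmosomes and adherens junctions lay below 0 by small amounts. Of 15 members tested 13 lay below 0, 0 passed, and 7 of 14 bright members were lower without overlap, beside 9.92% of all bright genes (bright median −0.39). Dsp, desmoplakin, had signals of 34.5, 28.9 and 26.3 at 24 months and 47.0, 47.3 and 44.6 at 5 months, a difference of −0.64 ± 0.22 (SE, limma adjusted p = 0.284). Dsc3, a desmosomal cadherin, had 29.8, 32.6 and 27.4 against 40.1, 43.9 and 41.3, a difference of −0.48 ± 0.21 (SE, limma adjusted p = 0.375). Cdh1, E-cadherin, differed by −0.68 ± 0.29 (SE, limma adjusted p = 0.37). For Dsp and Dsc3 the 24-month arrays lay below all 12 other telogen arrays. The medians of the 4 lists of adhesion and matrix genes kept their sign in all the alternatives run, the slide block among them. Single members came close to 0, however. In the alternative nearest to 0 for each, Col7a1 was at −0.00097, Itgb4 at −0.019, Dsp at −0.082 and Dsc3 at −0.11. Tnc, Postn and Col17a1 were at −0.78, −0.62 and −0.53 in theirs.

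Markers of fibroblasts, which make much of the matrix, were set beside these genes. Of 16 fibroblast markers, 7 were well above background on all 24-month arrays and 9 on all 5-month arrays, and their summed signal was 15.9 to 32.3 at 24 months and 29.2 to 39.8 at 5 months. Col6a1, given above, is one of the 16. Dcn was not well above background on any of the 6 arrays, Pdgfra had signals of 0.006, 0.005 and 0.007 at 24 months and 0.128, 0.391 and 0.004 at 5 months, and Col1a1 had at most 0.37 and 0.439. Their part in the matrix values was not tested, and fewer cells of a type and less RNA per cell cannot be told apart in such samples.

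**Figure D3:**
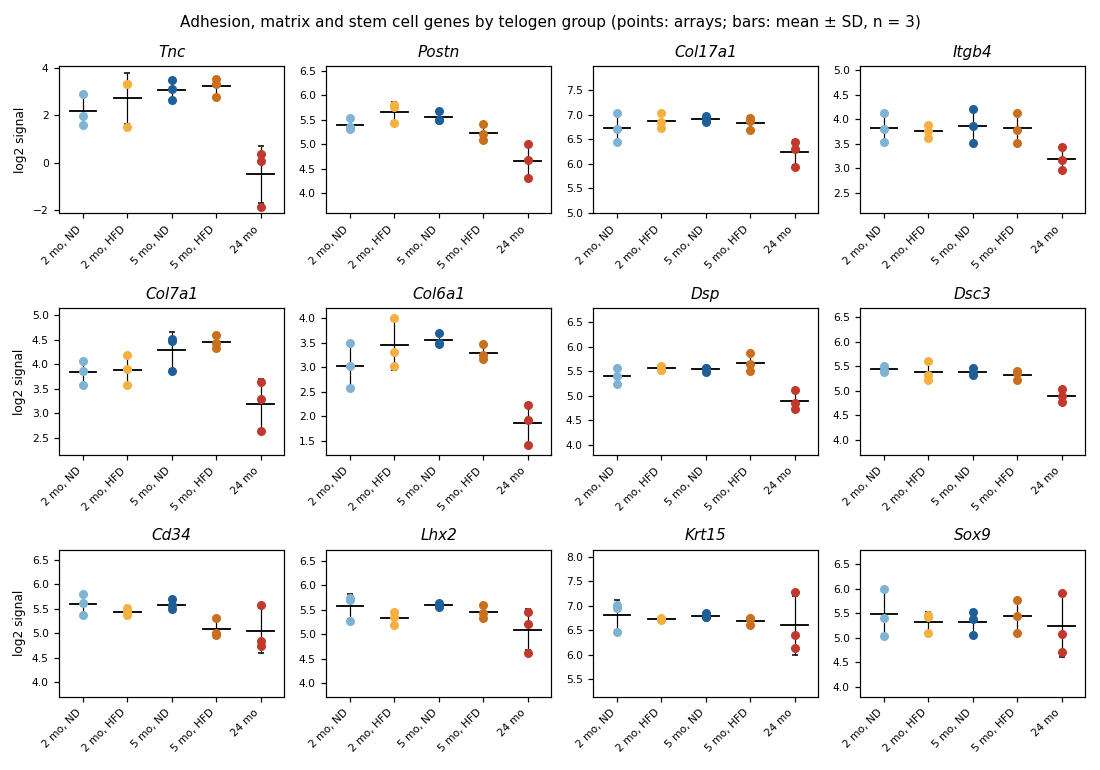
Log2 normalized signal (vertical axes, each spanning at least 3 units) of 12 bright genes in the 5 telogen groups, by age in months and normal (ND) or high-fat (HFD) diet (horizontal axes), with 1 point an array and bars for the mean ± SD (n = 3). For Tnc, Postn, Itgb4, Col6a1, Dsp and Dsc3 the 3 arrays of 24-month mice lie below all 12 others, whereas for Krt15 and Sox9 they overlap the other groups.

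The stem cell transcription factors lay close to the bright genes as a whole. All 16 listed were tested, 12 lay below 0 with a median of −0.13 (−0.14 for all bright genes), and 0 passed. Lhx2, which keeps bulge cells in the stem cell state, had signals of 24.6, 37.1 and 43.6 at 24 months and 47.1, 49.7 and 48.4 at 5 months, a difference of −0.50 ± 0.26 (SE, limma adjusted p = 0.446), with every 24-month array below every 5-month array. Nfib, a factor of the bulge stem cells, had 23.2, 26 and 22.6 against 31.6, 34.1 and 32.1 (−0.45 ± 0.21, SE, limma adjusted p = 0.411). Sox9 overlapped between the ages, at 26.1, 33.6 and 60.4 against 41.7, 46.1 and 33.1, and the 95% interval of its difference ran from −0.86 to 0.68. Nfatc1, a factor of stem cell quiescence, and Foxc1, which holds stem cells in place and at rest, overlapped as well, with intervals from −0.83 to 0.54 and from −0.98 to 0.74. The second probe of Nfatc1 lay at 1.2. Tcf7l1 was dimmer, at 0.480, 0.988 and 0.566 against 1.13, 0.224 and 1.18, with an interval from −1.52 to 1.42. Runx1, which promotes the entry into anagen, was the bright factor with the opposite order, at 16.0, 16.7 and 20.6 against 11.3, 13.7 and 13.5 (0.47 ± 0.28, SE, limma adjusted p = 0.519), and its 24-month arrays lay above all 12 other telogen arrays; the lowest of its 3 probes lay at −0.03. Sox21 had 0.705, 0.047 and 0.498 against 1.87, 3.43 and 1.95 (−3.19 ± 0.83, SE, limma adjusted p = 0.211).

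Surface and lineage markers of the bulge lay lower than the factors in the comparison with 5 months. Against 2-month mice on normal diet their median difference was −0.03 and that of the factors −0.23. Of 19 tested, 16 were below 0 with a median of −0.42 against 5 months, and 0 passed. Among the 18 bright markers, 5 were lower without overlap (9.92% of all bright genes). Lrig1, which marks the upper follicle and restrains growth factor receptors, had signals of 2.37, 4.00 and 3.63 against 5.44, 6.41 and 6.17 (−0.88 ± 0.38, SE, limma adjusted p = 0.372). Cd34, the surface antigen by which mouse bulge cells are commonly sorted, had 26.6, 28.8 and 47.5 at 24 months and 51.7, 45 and 47.3 at 5 months (−0.53 ± 0.26, SE, limma adjusted p = 0.427), the third 24-month array lying within the 5-month range. Lgr5 had 9.22, 9.55 and 7.26 against 10.9, 15.6 and 14.6 (−0.65 ± 0.36, SE, limma adjusted p = 0.475).

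The bright genes that were higher on all 24-month arrays were fewer than the lower ones. Fads2, a fatty acid desaturase, had signals of 1.38, 1.89 and 2.01 at 24 months and 0.740, 0.796 and 0.673 at 5 months, a difference of 1.24 ± 0.26 (SE, limma adjusted p = 0.14), but the log2 means of 2-month mice, 0.52 on normal and 0.50 on high-fat diet, lay between the 5-month mean of −0.44 and the 24-month mean of 0.80. Klf10, a transcription factor induced by TGF-β, had 16.7, 12 and 15.1 against 5.78, 4.21 and 4.65 (1.58 ± 0.40, SE, limma adjusted p = 0.202), and its 24-month arrays lay above all 12 other telogen arrays. Stn1, a subunit of the CST complex at telomeres, had 1.46, 1.54 and 1.37 against 0.779, 0.700 and 0.692 (1.01 ± 0.22, SE, limma adjusted p = 0.152), and its second probe differed by 0.16. The arrays of 2-month mice on normal diet, at 1.01 to 1.44, overlapped its 24-month range. Fuom, an enzyme of fucose metabolism, and Ccdc127 differed by 1.76 ± 0.43 and 1.74 ± 0.44, but the second probe of Ccdc127 lay at −0.06, and the other telogen groups overlapped the 24-month range of Fuom. For Ccdc127, 2-month mice on normal diet reached 6.20 and 5-month mice on high-fat diet 6.59, above the lowest 24-month signal of 5.72. Among genes that were less bright, Angptl4, a secreted inhibitor of lipoprotein lipase, had 6.40, 2.05 and 2.10 against 0.409, 0.468 and 0.559, a difference of 2.67 ± 0.48 (SE, limma adjusted p = 0.0897). With array weights its adjusted p was 0.0318, and its 24-month arrays lay above all 12 other telogen arrays.

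Genes of the outer, differentiating epidermis were the list with the highest median. Of 35 listed, 30 were tested, 19 were above 0 and 11 below, the median was 0.58, and 6 were higher without overlap (11.8% of all genes tested) and 2 lower. Lce1i, 1 of the 30, passed, as given above. Asprv1, a protease that processes filaggrin, had signals of 39.4, 26.7 and 19.2 at 24 months and 8.18, 5.85 and 9.83 at 5 months (1.81 ± 0.65, SE, limma adjusted p = 0.299). The late cornified envelope gene Lce1m had 3.24, 1.93 and 2.44 against 0.657, 0.636 and 0.959 (1.75 ± 0.55, SE, limma adjusted p = 0.278). Lce1c, of the same family, had 6.07, 3.39 and 4.98 against 2.00, 2.46 and 2.01 (1.12 ± 0.32, SE, limma adjusted p = 0.237). Tgm1, the transglutaminase of the cornified envelope, had 2.84, 1.45 and 0.866 against 0.525, 0.202 and 0.552 (1.98 ± 0.92, SE, limma adjusted p = 0.409). Telogen arrays of 5-month mice on high-fat diet overlapped the 24-month arrays for each of these. Their highest signals were 20.6 for Asprv1, 2.88 for Lce1m, 3.85 for Lce1c and 3.17 for Tgm1. On the young anagen array of slide 3, beside the 2-month normal diet anagen array of slide 2, Asprv1 had 64.2 against 22.4, Lce1m 3.17 against 0.687 and Lce1c 6.18 against 2.52, so these were high there too, and the part of slide or position was not tested. The keratins of early differentiation overlapped between the ages: Krt10 had 24.8, 16.9 and 26.2 against 43.6, 34.3 and 24.3, and Krt1 had 12.1, 4.09 and 17.9 against 25.2, 14.2 and 10.1. Lor, also of this list, was higher without overlap, at 22.6, 19.6 and 22.3 against 4.73, 10.3 and 16.9. Over the 18 bright members the median was 0.00, with 9 above and 9 below. The summed signal of the list, 236.8 to 339.6 at 24 months and 268.7 to 318.4 at 5 months, overlapped between the ages.

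**Figure D4:**
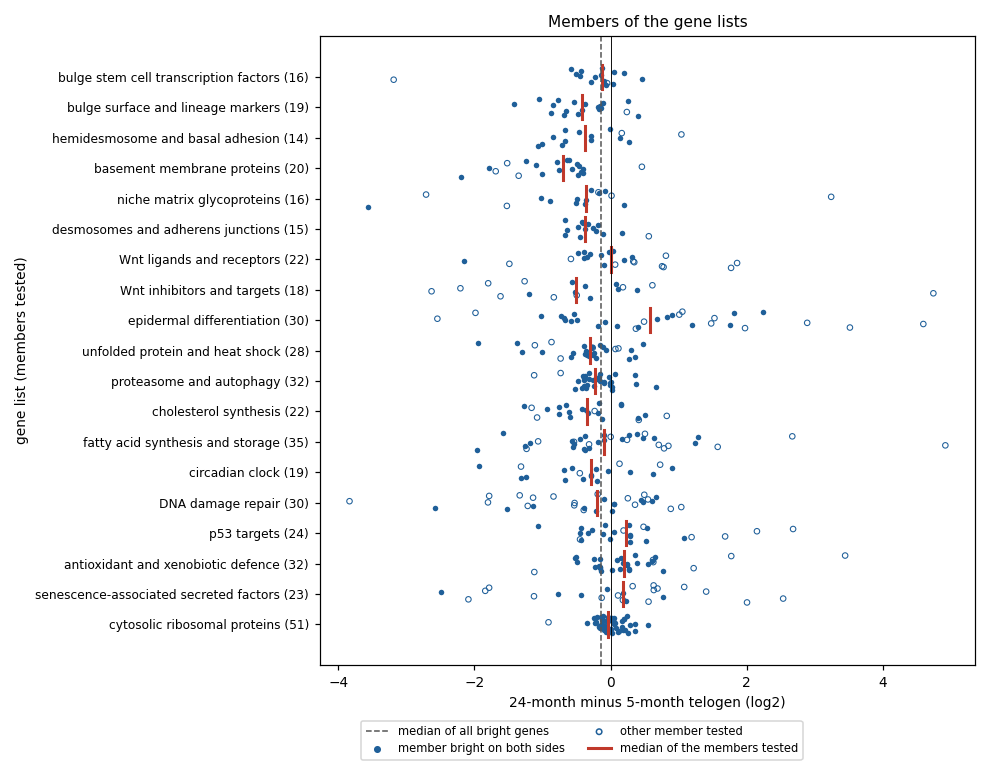
Difference between 24-month and 5-month telogen in log2 units (horizontal axis) for the members of 19 gene lists (vertical axis, with the number tested), 1 point a gene, filled where bright on both sides, with a red bar at the list's median and a dashed line at the median of all bright genes, −0.14. The basement membrane list has 19 of 20 points left of 0 and the epidermal differentiation list 19 of 30 right of it.

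Wnt signalling, which starts the growth phase, gave values in both directions. Of 22 ligands and receptors tested, 11 were above and 11 below 0, 0 passed, and the median was 0.01. Wnt7b had signals of 2.43, 2.56 and 1.64 at 24 months and 0.540, 0.574 and 0.828 at 5 months (1.77 ± 0.38, SE, limma adjusted p = 0.15), above all 12 other telogen arrays, but its second probe differed by 0.20 and the slide block turned its sign. Wnt10a, a ligand of the hair germ at the start of anagen, had 0.385, 1.63 and 1.35 against 2.68, 4.71 and 5.93 (−2.16 ± 0.59, SE, limma adjusted p = 0.229). Of 18 inhibitors and targets of the pathway, 12 lay below 0 with a median of −0.51 and 0 passed. Sostdc1, a secreted inhibitor of Wnt and BMP signals, had 5.91, 37.0 and 18.6 against 33.1, 35.6 and 41.2, a difference of −1.19 ± 0.53 (SE, limma adjusted p = 0.382) in which the second 24-month array lay within the 5-month range.

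Most protein folding genes and clock genes lay below 0, as did 61.7% of all bright genes (median −0.14). Of 28 genes of the unfolded protein and heat shock responses, all tested, 22 were below 0 with a median of −0.30, and 0 passed. Among the 22 bright members of that list, 7 were lower without overlap (9.92% of all bright genes). Hspa1a, an inducible heat shock protein, had signals of 2.81, 1.76 and 1.18 at 24 months and 5.54, 3.74 and 4.25 at 5 months (−1.30 ± 0.38, SE, limma adjusted p = 0.255). Hsp90b1, a chaperone of the endoplasmic reticulum, had 12.4, 10.6 and 7.82 against 19.5, 18.4 and 23.4 (−1.01 ± 0.30, SE, limma adjusted p = 0.26). Atf4, the transcription factor of the integrated stress response, had 12.6, 4.70 and 10.4 against 29.9, 19.5 and 18.3 (−1.37 ± 0.44, SE, limma adjusted p = 0.282). Of 32 proteasome and autophagy genes 26 lay below 0 (median −0.22) and 0 passed. Of 22 genes of cholesterol synthesis 16 lay below 0 (median −0.35) and 0 passed.

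Of 19 clock genes 14 lay below 0, with a median of −0.29, and 0 passed. Among the 15 bright clock genes, 3 were lower without overlap (9.92% of all bright genes). Bhlhe41, a repressor of clock transcription, had signals of 1.72, 0.588 and 1.08 at 24 months and 4.17, 4.42 and 3.25 at 5 months (−1.93 ± 0.66, SE, limma adjusted p = 0.287). Its mean was lower still, at −0.64 in log2 units, in 2-month mice after 4 days of high-fat diet than at 24 months (0.04). Per3 had 1.18, 3.76 and 4.60 against 8.88, 5.76 and 6.08 (−1.31 ± 0.56, SE, limma adjusted p = 0.363). Per2 differed by −1.24 ± 0.43, but its other probe lay at 0.55. The labels used here give no time of day for the samples.

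Genes of DNA damage, senescence and telomere upkeep, often examined in aged tissue, showed no called member. Of 30 repair genes tested, 17 lay below 0 (median −0.21). Lig4, the ligase of non-homologous end joining, had the smallest p, with signals of 0.041, 0.039 and 0.084 at 24 months and 0.613, 0.313 and 2.04 at 5 months (−3.84 ± 0.67, SE, limma adjusted p = 0.0873), 14.3-fold lower on a dim probe. A second probe of Lig4, which did not enter the test, went the other way, by 0.60. It was well above background on 2 arrays of each age. On the single anagen arrays the tested probe had 3.45 at 24 months and 2.19 at 5 months. Trp53bp1, a mediator of the damage response, differed by −2.59 ± 0.99, and the others of its 4 probes lay at −0.98, −1.40 and 1.44. Dkc1, which stabilises telomerase RNA, had 0.283, 0.365 and 0.118 against 1.68, 1.38 and 1.01 (−2.53 ± 0.65, SE, limma adjusted p = 0.206), and −0.56 at its second probe. Cdkn2a, which encodes the senescence marker p16, was at 0.043, 0.047 and 0.079 against 0.043, 0.040 and 0.088, a difference of 0.03 with a 95% interval from −0.77 to 0.82. Cdkn1a, which encodes p21, overlapped too, at 2.88, 1.44 and 3.78 against 6.31, 2.14 and 2.84 (interval −1.74 to 0.88). Of 24 targets of p53 tested, 14 lay above 0 with a median of 0.23, which was −0.05 with median centring. Sesn1, a stress-induced inhibitor of mTORC1, had 5.92, 8.27 and 6.86 against 3.30, 2.97 and 3.59 (1.09 ± 0.36, SE, limma adjusted p = 0.282), above all 12 other telogen arrays. Of 23 secreted factors of senescence tested, 14 lay above 0 with a median of 0.18, or −0.10 with median centring.

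Of 32 antioxidant and xenobiotic defence genes, all tested, 21 lay above 0 with a median of 0.20, or −0.08 with median centring, and Akr1c12 passed. The 51 cytosolic ribosomal protein genes lay close to 0, with a median of −0.03 whose sign varied with the scaling, and 0 passed.

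For the other cell types listed the summed signal of the markers overlapped between the ages, although single markers did not. For the dermal papilla, of which Alpl is a marker, 8 of 12 markers were well above background on all arrays of each group, the summed signal was 5.32 to 22.4 at 24 months and 6.75 to 23.1 at 5 months, Alx4 was not well above background on any of the 6 arrays, and Corin was at 0.057, 0.050 and 0.080 against 0.048, 0.030 and 0.046. The part of dermal papilla cells in the Alpl value was not tested. The endothelial markers Cdh5 and Kdr were not well above background on any of the 6 arrays. The summed signal of 16 macrophage and Langerhans cell markers, 12 of them well above background on all 24-month arrays and 14 on all 5-month arrays, was 122.8 to 242.7 at 24 months and 168.5 to 213.2 at 5 months. The defining ones were much dimmer than this sum. Csf1r had 3.14, 3.23 and 4.49 against 2.65, 3.65 and 4.38, and Cd207 had 0.153, 0.127 and 0.260 against 0.108, 0.346 and 0.159. Adgre1 was well above background on 0 of the 24-month and 1 of the 5-month arrays. Melanocyte markers summed to 4.49 to 9.60 and 5.97 to 8.72, with Pmel lower at 24 months (0.056, 0.047 and 0.116 against 0.511, 0.439 and 0.786) and Dct higher (2.59, 2.5 and 4.47 against 1.94, 1.78 and 2.13). Of the T cell markers measured on all 6 arrays, 6 of 11 lay above 0 with a median of 0.46, while the summed signal was 7.57 to 10.5 against 5.71 to 14.8. Cd3e had 0.396, 0.553 and 1.00 against 0.294, 0.307 and 0.338. Cd3g overlapped between the ages, at 0.143, 0.052 and 0.050 against 0.483, 0.253 and 0.027. All 8 adipocyte markers so measured lay above 0 (median 0.57), with a median summed signal of 5.76 at 24 months and 2.88 at 5 months, where the lowest 24-month array, at 4.66, was below the highest 5-month array, at 5.62, and 10 of 11 muscle markers did (median 0.47), with 30.0 to 60.5 against 42.5 to 48.2. Only 2 of these adipocyte, 2 of these muscle and 3 of these T cell markers were bright on both sides. Over all genes, the median difference was 0.34 and 0.39 in the 2 dimmest classes by brightness. Acta1 and Myh11 of muscle reached 0.150 and 0.711 at 24 months and 0.083 and 0.340 at 5 months. The part of these cell types in the genes that were higher at 24 months was not tested.

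The anagen arrays of both ages, 1 each, were read beside the telogen comparison. They are other samples, but again the 24-month array lay on slide 3 and the 5-month array on slide 1. Of the 783 bright genes that were lower on all 24-month telogen arrays, 61.6% were also lower on the 24-month than on the 5-month anagen array, against 47.3% of all bright genes. Of the 355 that were higher, 23.4% were lower in anagen. The median anagen difference was −0.17 for the former, 0.48 for the latter and 0.04 for all bright genes. The 2-month anagen arrays offer a second pair with 1 array on slide 3 (high-fat diet) and 1 on slide 2 (normal diet), and there 53.6% of the 783 genes and 49.0% of the 355 were lower on slide 3, against 50.8% of all bright genes. That pair also differs in diet, and with 1 array a group none of these shares has a replicate check.

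Klf10 differed by 1.17 between the anagen arrays of 24-month and 5-month mice, Fads2 by 2.18, Asprv1 by 1.6 and Angptl4 by 5.34, with the sign they had in telogen. Between the 2-month anagen arrays, high-fat minus normal diet, the differences were −0.53, 2.76, 1.52 and 0.98 in the same order, so that Fads2 and Asprv1 were also higher on slide 3 in that pair of one age. Tnc differed by −0.77, Col6a1 by −0.34 and Col17a1 by −0.10, also with the telogen sign, while Itgb4 (0.42), Dsp (0.22), Dsc3 (0.49), Igfbp3 (1.04) and Plxna2 (1.01) had the opposite sign. Postn was higher too, at 29.5 against 26.3, and Col7a1 lower, at 17.25 against 20.2. By list, the median anagen difference was 0.06 for hemidesmosome, −0.19 for basement membrane, 0.53 for niche matrix and 0.22 for desmosome and adherens junction genes. It was 0.24 for all genes tested.

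**Figure D5:**
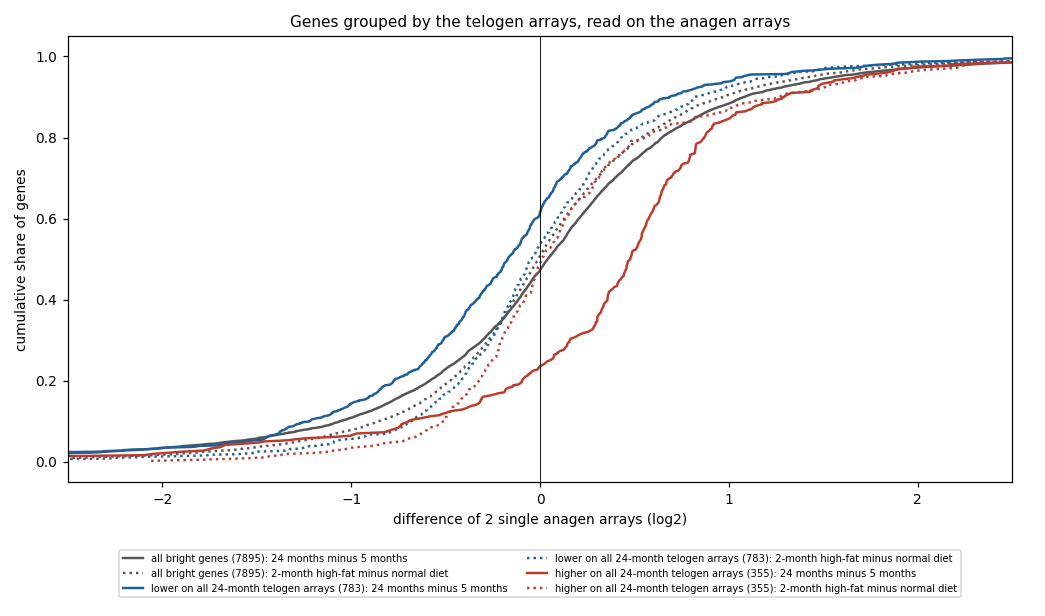
Cumulative share (vertical axis) of the difference between single anagen arrays in log2 units (horizontal axis) for all 7895 bright genes, the 783 lower and the 355 higher on all 24-month telogen arrays; solid lines are 24 months minus 5 months and dotted lines 2-month high-fat minus normal diet. The solid blue and red lines separate, crossing 0 at 61.6% and 23.4%, while the dotted ones cross it at 53.6% and 49.0%.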

How the data were processed

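Per the file headers, the authors ran Feature Extraction 10.7.1.1, and its intensity values are corrected for background and for spatial and multiplicative trends. The deposited series table gives the signal of each probe, linear and without centring of genes. It equals the processed intensity divided by a constant of each array close to its 75th percentile. Its column medians were 0.146, 0.111 and 0.168 at 24 months and 0.111, 0.12 and 0.115 at 5 months. The program that set the constant was not given in the sources used here.

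Log2 of the deposited signals was used, with 13 values of outlier spots set to missing in the 6 arrays, so that the fit used the remaining arrays for those probes. No spot was saturated. Of 56605 probes, 32994 matched 1 RefSeq symbol through their accession and 23611 matched none and were left out. Probes entered the test if flagged well above background on every array of 1 age or both, and the brightest such probe over the 6 arrays stood for its gene, which gave 17311 genes. Of 5849 genes with several tested probes, 2631 had probes that differed in sign. The groups were compared in 1 limma fit of the 15 telogen arrays, which share 1 estimate of the spread (limma 3.58.1, R 4.3.3, data.table in version 1.17.8), with a two-sided moderated test and a threshold of 0.05. The fit was tested on simulated data. Same-numbered arrays of the 2 ages did not deviate together, with correlations of −0.007, −0.05 and −0.005, so no pairing was used.

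The genes named are, without predicted symbols, up to 10 a direction with the largest change among those that passed without overlap (the 5 with the smallest p where fewer than 5 passed), the 8 bright genes a direction with the smallest p and without overlap, up to 4 members of each gene list with the smallest p among those measured on all 6 arrays, and 11 key genes of the stem cells, Cdkn2a and Cdkn1a included. Not all of these are printed. The predicted gene Gm19531 was added after its values were seen because it passed, and the defining cell type markers were added as markers. The comparison, the lists and the rule were chosen with earlier results of these data known. Promoter letters were counted in the first RefSeq promoter listed for each gene. Alternatives in background correction, scaling, filters, probes, arrays, blocks and thresholds were run.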

Additional observations from a re-analysis of the deposited data

Results flagged for a closer look

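Of the 11 genes that rose in 24-month telogen, 5 were also well above background and over 4 times the normal diet level on an anagen array that the comparison did not use, from 2-month mice after 4 days of high-fat diet. The signals on that array were 0.189 for Vmn1r12, 0.522 for Mei1, 0.123 for Prl7d1, 0.168 for Saa4 and 1.125 for Lce1i, against 0.006, 0.04, 0.006, 0.006 and 0.133 on the 2-month normal diet anagen array. The high array lay in the same row of slide 3 as the 24-month telogen arrays.

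Ddx28 went opposite ways in the hair cycle phases: it rose by 2.41 on the log2 scale in telogen, while the single 24-month anagen array lay below the 5-month one (−1.72). The difference between the phases was not tested.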

How the results depend on the processing

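Counts of calls are given in the order all, higher, lower and among genes measured on all 6 arrays, which were 12, 11, 1 and 4 as reported. They were 2, 2, 0 and 1 with normexp background correction, 1, 1, 0 and 1 when only genes well above background on all 6 arrays were tested, 0, 0, 0 and 0 with those on all 20 arrays (1698 unadjusted p below 0.05), 3, 3, 0 and 2 in a limma fit of the 6 arrays alone, 4, 4, 0 and 2 with the 9 normal diet and aged telogen arrays, and 0 for each in a fit of all 20 arrays with phase (2558 unadjusted p below 0.05). Of the 12 genes, the fit of the 6 arrays alone kept Vmn1r12, and that of the 9 arrays kept Vmn1r12 and Mei1. With array weights the counts were 23, 19, 4 and 14, at an adjusted p below 0.01 they were 4, 4, 0 and 1, and below 0.1 they were 24, 17, 7 and 14. Quantile normalization and median centring each gave 4 lower calls, the percentile over probes detected on all 20 arrays 0 lower calls, and a trend in the variance 2 calls on all 6 arrays. With a replicate block, as the labels number the replicates, the counts were 6, 6, 0 and 1, all 6 among the 12; the numbers did not pair the arrays.

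Leaving out single arrays gave 5 to 25 calls, 5 to 20 higher, 0 to 5 lower and 1 to 15 among genes measured on all 6 arrays. The most came without the second 24-month array (25, 9 of them among the 12) and the fewest without the third 5-month array (5, all among the 12). Without the third 24-month or the first 5-month array there were 6, and without the second 5-month array 11.

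A slide block in the fit of all 20 arrays, which rests on the single anagen arrays, gave 4 calls, 1 higher and 3 lower, of which 0 were among the 12. It reversed Vmn1r12 (−5.01), Saa4 (−5.68), Mei1 (−4.27), Prl7d1 (−2.41), Gm19531 (−1.08), Hacd4 (−0.38), Armcx1 (0.17), Plxna2 (2.07), Atp11a (0.0755), Nfib (0.10), Runx1 (−0.10), Tcf7l1 (0.61), Lrig1 (0.32), Itga6 (0.37), Col4a1 (0.31), Fn1 (−0.46), Wnt7b (−0.0744), Sesn1 (−0.30) and Cdkn2a (−0.46). The median of the protein folding list became 0.12 and that of repair genes 0.44.

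Of 69 genes followed, 61 kept their sign in every setting other than the slide block. The other 8 were as follows. Nfatc1 turned to 0.0262 with quantile normalization and 0.53 as the mean of its probes, and without single arrays it ran from −0.35 to 0.00781. Foxc1 turned to 0.13 in the fit of 20 arrays and 0.0287 with array weights, and ran from −0.34 to 0.0735 without single arrays. With the percentile over detected probes Tcf7l1 turned to 0.0397 and Sox9 to 0.000787. Without single arrays Tcf7l1 ran from −0.84 to 0.36, Sox9 from −0.43 to 0.17, Krt15 from −0.53 to 0.0487 and Cdkn1a from −0.76 to 0.0227. Fn1 was −0.74 as the mean of its probes. Cdkn2a was −0.038 with normexp, −0.23 with quantile normalization, −0.25 with median centring, −0.000128 with a pseudocount of 0.1 and −0.16 with array weights, and ran from −0.25 to 0.39 without single arrays. The causes were not tested.

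Chosen after seeing the data, the bright genes without overlap were recounted. Median centring gave 1546 lower and 136 higher, against 783 and 355 as reported; without single arrays, where fewer arrays make an overlap less likely, there were 1160 to 1712 lower and 559 to 755 higher, the lower ones always more numerous. The number of arrays and dim signals limit all of these values.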
